A study of Homo sapiens with 3 samples.

Results

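SP1 summits inside genes and away from their ends were the subject: the single-base positions, called for the transcription factor SP1 in H1299 cells, that lay within the span of a RefSeq protein-coding gene and more than 1000 bases from every end of a protein-coding or long non-coding RNA (lncRNA) gene. Chromosome 19 was left out of the rule. The rule used positions only, and 1245 of the 5570 SP1 summits met it, or 22.4%. They lay in 1099 host genes on 22 chromosomes. Of the other summits, 2051 lay at protein-coding gene ends, 223 at the ends of lncRNA genes only, 817 between genes within 100 kb of a gene, 606 farther from genes and 628 on chromosome 19. H1299 is an established cell line derived from a human non-small cell lung carcinoma, which the labels describe as lung adenocarcinoma. The cells were profiled by CUT&RUN, in which an antibody tethers a nuclease to its target and the DNA released around the target is sequenced. The series has 3 libraries, 1 each for SP1, for acetylated lysine 27 of histone H3 (H3K27ac) and for a negative control IgG, and the labels name no treatment, genotype change or time. The IgG library was not analysed here. With a single library for each antibody, no value has a replicate and no test was run. Intervals are 95% Wilson intervals for shares and order-statistic intervals for medians, and they cover counting error only. The files hold no read counts, so sequencing depth is unknown. They hold no expression values either, so the labelled cell type was not checked against expressed markers.

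SP1 is a zinc finger activator that binds GC boxes, short G- and C-rich elements common in promoters without a TATA box. Many genes have further promoters inside their span, which give shorter or differently spliced transcripts. H3K27ac marks active promoters and enhancers, both at gene starts and within introns.

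Sequence was read only at annotated transcript starts, and 8 windows at starts inside the host genes are printed to show their range. Each runs over the 250 bases before an annotated start that had an SP1 summit within 500 bases, on the transcript's strand, from RefSeq on GRCh38.p14. Capitals mark the GC box GGGCGG on either strand, and in RTN4 they mark the AP-1 motif TGANTCA. The first 5 come from the 6 highest-scoring summits at starts, with 1 to 3 whole GC boxes in the letters. DCAKD held the most boxes of any such start. TMBIM1 and RTN4 held no GC box.
ACSS2: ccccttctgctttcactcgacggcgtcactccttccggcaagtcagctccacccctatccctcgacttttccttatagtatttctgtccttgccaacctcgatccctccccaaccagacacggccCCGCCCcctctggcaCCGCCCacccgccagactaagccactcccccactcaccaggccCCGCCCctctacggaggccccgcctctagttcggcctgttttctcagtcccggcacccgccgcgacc
PRPSAP2: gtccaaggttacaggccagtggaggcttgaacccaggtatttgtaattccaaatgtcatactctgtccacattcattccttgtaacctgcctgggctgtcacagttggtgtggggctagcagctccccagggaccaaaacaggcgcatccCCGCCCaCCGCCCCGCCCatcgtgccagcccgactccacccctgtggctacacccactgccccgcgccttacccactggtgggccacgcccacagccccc
LUZP1: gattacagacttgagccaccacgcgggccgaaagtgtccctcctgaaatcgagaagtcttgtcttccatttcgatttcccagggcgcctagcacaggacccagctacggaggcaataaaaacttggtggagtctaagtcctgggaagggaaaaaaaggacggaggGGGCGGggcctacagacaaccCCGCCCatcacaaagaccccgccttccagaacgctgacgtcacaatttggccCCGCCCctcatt
MEIG1: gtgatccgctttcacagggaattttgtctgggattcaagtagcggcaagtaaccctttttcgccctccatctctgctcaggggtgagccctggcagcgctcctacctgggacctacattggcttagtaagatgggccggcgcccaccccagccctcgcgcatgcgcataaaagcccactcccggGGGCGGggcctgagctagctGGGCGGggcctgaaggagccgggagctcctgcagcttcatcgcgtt
KAT6B: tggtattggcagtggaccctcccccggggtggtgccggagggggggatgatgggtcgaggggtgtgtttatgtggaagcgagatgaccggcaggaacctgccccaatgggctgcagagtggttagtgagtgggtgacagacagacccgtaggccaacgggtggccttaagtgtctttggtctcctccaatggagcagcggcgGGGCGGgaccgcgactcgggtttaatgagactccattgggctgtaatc
DCAKD: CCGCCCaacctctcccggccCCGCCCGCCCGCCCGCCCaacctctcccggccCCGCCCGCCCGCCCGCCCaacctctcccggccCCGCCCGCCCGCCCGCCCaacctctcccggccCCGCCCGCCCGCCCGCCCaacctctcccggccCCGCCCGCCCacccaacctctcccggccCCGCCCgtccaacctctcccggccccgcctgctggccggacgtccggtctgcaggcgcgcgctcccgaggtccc
TMBIM1: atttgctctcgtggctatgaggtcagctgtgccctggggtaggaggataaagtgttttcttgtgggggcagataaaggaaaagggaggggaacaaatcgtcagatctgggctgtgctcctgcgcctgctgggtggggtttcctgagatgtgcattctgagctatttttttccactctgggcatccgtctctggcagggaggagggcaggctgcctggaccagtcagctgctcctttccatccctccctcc
RTN4: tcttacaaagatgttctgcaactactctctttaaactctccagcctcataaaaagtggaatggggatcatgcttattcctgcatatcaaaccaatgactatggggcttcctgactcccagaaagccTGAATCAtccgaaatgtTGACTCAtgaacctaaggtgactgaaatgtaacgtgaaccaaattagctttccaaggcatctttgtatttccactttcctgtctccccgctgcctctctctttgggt

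The windows lie in the genome as follows. ACSS2 makes acetyl-CoA from acetate. Its window is chr20:34876362-34876611 on the plus strand, and its summit stood 404 bases before the start with a score of 30.7. The score is the peak's significance as the authors deposited it, a −log10 p-value or −log10 q-value, and which of these it is cannot be read from the files. PRPSAP2, a partner of the enzyme that makes phosphoribosyl pyrophosphate, has its window at chr17:18857818-18858067 (plus strand) and a summit of score 25.1 at 235 bases before the start. LUZP1, a protein of actin filaments and cilia, has its window at chr1:23168857-23169106 (minus strand) and a summit of score 21.5 at 217 bases before the start. Both of these summits lie inside the printed letters. MEIG1, needed for sperm formation, has its window at chr10:14959138-14959387 (plus strand) and a summit of score 19.2 at 138 bases past the start. KAT6B, a histone acetyltransferase, has its window at chr10:74826350-74826599 (plus strand), a summit of score 19.04 at 25 bases past the start and 4 CCAAT boxes in the 300-base window. DCAKD has its window at chr17:45051633-45051882 (minus strand), with 20 GC boxes, counting overlapping matches, and a GC content of 81.7%. They stand in a short tandem repeat. Its summit, 207 bases past the start, scored 8.15. TMBIM1, a membrane protein of the BAX inhibitor family, has its window at chr2:218286781-218287030 (minus strand) and none of the motifs searched. Its summit scored 16.5. RTN4, a protein that shapes the endoplasmic reticulum, has its window at chr2:55051273-55051522 (minus strand), with a GC content of 44.7% and 3 AP-1 motifs in the 300-base window, 2 of them whole in the letters above. The RTN4 summit, 148 bases past the start, scored 14.3 and had an H3K27ac summit 409 bases away.

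The scores of intragenic summits were low for the SP1 list. Their median was 5.21 (interval 5.21 to 5.36), with quartiles at 4.36 and 6.51 and a range from 3.001 to 79.3. The median was 7.93 (7.70 to 8.11) at protein-coding gene ends, 6.81 at lncRNA ends, 5.16 (4.95 to 5.21) between genes and 5.06 far from genes. A score above 10 was reached by 97 intragenic summits, or 7.79% (6.43 to 9.41), against 17.4% of all SP1 summits off chromosome 19. At protein-coding gene ends the share was 31.4%, and between genes it was 5.75%. On this measure intragenic summits stood close to those between genes and well below those at gene ends.

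**Figure D1:**
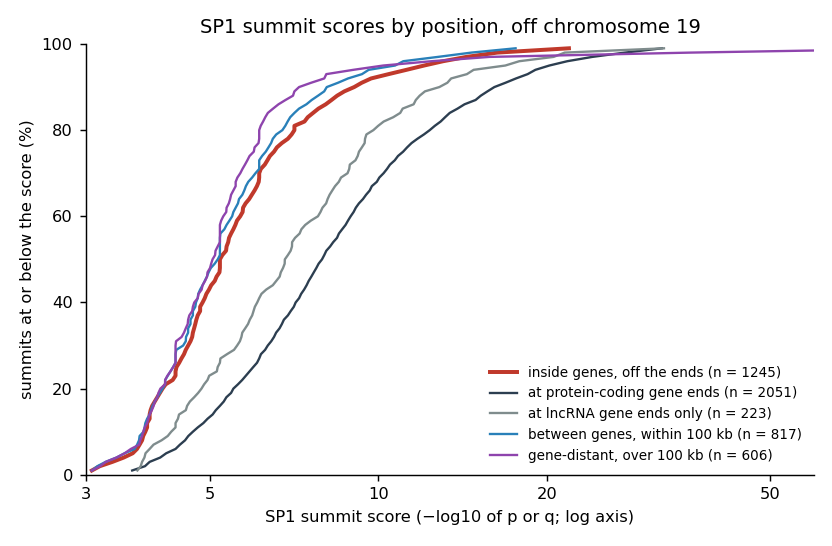
Cumulative share of SP1 summits (vertical axis, %) at or below each score (horizontal axis, −log10 of p or q, log scale) for the 5 positions off chromosome 19. The curve of the 1245 intragenic summits lies beside those between and far from genes and to the left of the curve for gene ends, whose median is 7.93.

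The highest scores were of several kinds. Of the 17 intragenic summits above 20, 5 lay beside copies of mitochondrial genes. In PCBD2, a pterin dehydratase gene on chromosome 5, summits at 134927674 and 134928305 scored 79.3 and 66.4, next to the pseudogenes MTND4P12 and MTND4LP30. In LOC102724250 on chromosome 1, summits at 634222, 633118 and 631763 scored 65.3, 60.8 and 27.1 beside copies such as MTATP6P1 and MTCO1P12. These 5 positions also carried H3K27ac summits, 8 to 55 bases away, with scores of 23.6 to 76.1. Reads from mitochondrial DNA can be placed on such copies, and their part in these values was not tested. The highest scores elsewhere were in PLCD1, a phospholipase C gene (35.5, at 38024794 on chromosome 3), TRIQK (31.4, at 92965932 on chromosome 8), ACSS2 (30.7), MAP3K6, a kinase of stress signalling (28.1, at 27365812 on chromosome 1), and DLG4, the gene of the synaptic scaffold PSD-95 (28.1, at 7214930 on chromosome 17). The MAP3K6 summit lay 1149 bases past the gene's own start, and the DLG4 summit 2195 bases before the start of its neighbour ACADVL. The PLCD1 and TRIQK summits were 4848 and 51733 bases from the nearest gene end, with no H3K27ac summit within 10000 bases.

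Just inside the rule's limit of 1000 bases were the summits in NUCKS1 (1005 bases from an end, score 5.39) and PGRMC2 (1006 bases, 4.61). Just outside were those in RNF6 (1000 bases, 6.13), SPTBN1 (998 bases, 3.84) and RILP (997 bases, 4.90). Those 3 were counted at gene ends.

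A part of the intragenic summits stood at annotated starts inside genes. RefSeq start positions were used for every chromosome but 8, which leaves 1152 of the summits. These positions also lacked some genes elsewhere. Of 1021 host genes off chromosome 8, 889 had a known strand, which came from the start positions. Summits in hosts without a listed start stayed among the 1152 but could not stand at a start of their own host. Within 500 bases of a start lay 148 of them, or 12.8% (11.04 to 14.90), against 37.7% of all SP1 summits off chromosomes 8 and 19. The rule leaves out summits near gene ends, where outermost starts lie, so a lower share was built in. At protein-coding gene ends the share was 75.9%. Only starts within the span of their gene were used, so summits between genes could hardly lie at one. The start belonged to the host gene itself in 147 of the 148 cases, and 142 genes were involved. These summits had a median score of 7.51 (6.80 to 8.001). The 1004 summits over 500 bases from every listed start had a median of 5.16 (5.004 to 5.21). The score at starts inside genes was thus close to the 7.93 found at gene ends, and the 2 intervals overlapped.

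The share at starts was higher in groups of higher score. With the summits ordered by score and divided into 10 groups, 1.87% (0.514 to 6.56) of the lowest group stood at a start. The share was 9.92% in the seventh group, 15.9% in the eighth, 32.2% (24.4 to 41.1) in the ninth and 36.4% (28.3 to 45.4) in the highest, whose scores ran from 9.08 to 79.3. The median distance to a gene end was 22941 bases in the lowest group and 4861 bases in the highest.

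**Figure D2:**
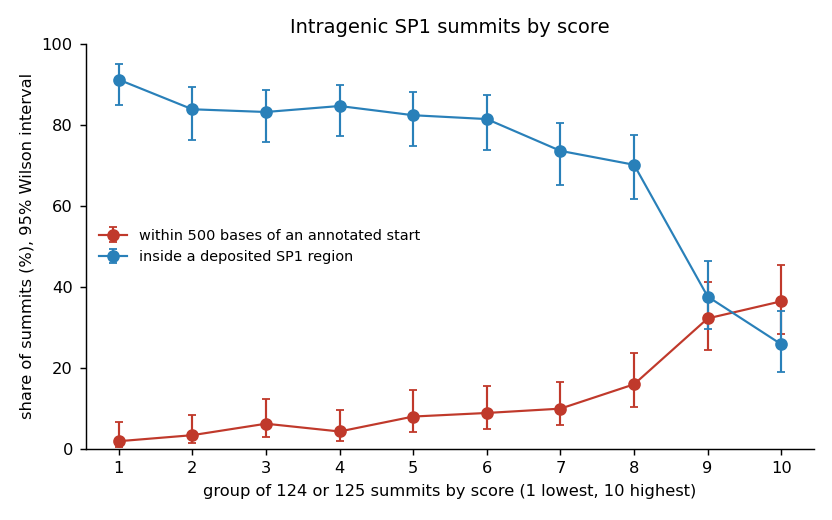
Intragenic SP1 summits in 10 groups of ascending score (horizontal axis), with the share (%) within 500 bases of an annotated start (red) and the share inside a deposited SP1 region (blue). Points are shares with 95% Wilson intervals; the red share is 1.87% in group 1 and 36.4% in group 10, while the blue share is 91.2% and 25.8%.

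The summits at starts flanked the start. Of the 148, 68 lay 201 to 500 bases before it, or 45.9% (38.1 to 54.0), and 47 lay from the start to 200 bases past it, or 31.8% (24.8 to 39.6). The 200 bases before the start held 20, and only 4 lay in the last 100 of those. At protein-coding gene ends the same spans held 34.8% (32.4 to 37.2), 39.1% (36.6 to 41.6) and 14.9% (13.2 to 16.8) of 1486 summits. The far upstream position was thus more frequent inside genes, with intervals that did not overlap, while the other intervals did overlap. A summit on each side was seen at 5 starts, the only starts with more than 1 intragenic summit. For THRAP3, which codes for a splicing-associated protein, the summits lay 475 bases before and 83 bases past the start, with scores of 8.55 to 10.1. For UVSSA, a factor of transcription-coupled DNA repair, they lay at 372 before and 127 past (5.17 to 5.92). The other 3 pairs were in SGK1, a kinase of ion transport (294 before, 359 past), MIB1, a ubiquitin ligase of Notch signalling (367 before, 100 past), and PHF8, a histone demethylase (145 before, 176 past).

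**Figure D3:**
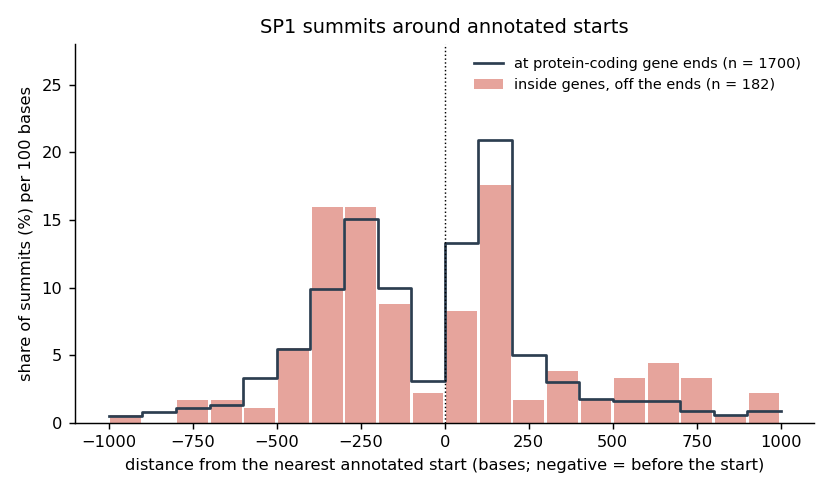
Position of SP1 summits relative to the nearest annotated start (horizontal axis, bases, negative before the start) as a share (%) per 100 bases; bars show 182 intragenic summits and the line 1700 summits at protein-coding gene ends, all within 1000 bases of a start. Both have a peak on each side and few summits in the 100 bases before the start, where 4 of the intragenic summits lie.

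Seen from the starts, a listed SP1 summit was the exception. The table held 4241 starts of 2769 genes that lay inside their gene and over 1000 bases from every end of a protein-coding or lncRNA gene. Of these, 184 had an SP1 summit within 500 bases, or 4.34% (3.77 to 4.99), and 168 of them, in 138 genes, had one of the intragenic summits. Of 12771 outermost starts, 1398 had an SP1 summit, or 10.9% (10.4 to 11.5). Starts inside genes with an H3K27ac summit numbered 16, or 0.377%.

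Starts with an intragenic summit had the sequence of GC-rich promoters. The windows here ran from 250 bases before the start to 50 bases past it, 300 in all, and each motif was searched on both strands. Those with an intragenic summit belonged to 138 genes, and windows of the same gene can overlap or share a summit. Intervals of window shares, here and below, count each window as independent and may be too narrow. GGGCGG occurred in 76.8% (69.8 to 82.5) of the 168 windows, against 34.4% (33.0 to 35.9) of 4007 starts inside genes with no SP1 summit within 1000 bases and 45.0% of all 35116 RefSeq windows. At the outermost starts with an SP1 summit it occurred in 81.0% (78.9 to 83.0). The median GC content was 66.0% in windows with an intragenic summit and 54.7% in those without SP1. The ratio of observed to expected CpG had medians of 0.798 and 0.362. The longer GC box GGGGCGGGG, which contains the short one, was in 35.7% against 10.6%, with 15.7% over all windows. The CCAAT box, searched as CCAAT, was in 38.7% (31.7 to 46.2) against 31.3% (29.9 to 32.8), with 34.6% over all windows. TATAAA was in 2.98% (1.28 to 6.78) against 12.8%, with 11.5% over all. The AP-1 motif TGANTCA was in 6.55% (3.70 to 11.3) against 9.41%, with 7.71% over all. The ETS motif CCGGAAGT was in 3.57% (1.65 to 7.57) against 1.37%, with 4.14% over all. A match describes the letters of a window and does not show a bound site.

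The share of starts with an intragenic summit was higher where the window held more GC boxes. It was 1.45% (1.06 to 1.98) of 2689 starts with no box, 4.47% with 1, 8.68% with 2, 12.1% with 3 and 13.5% (10.2 to 17.7) of 318 starts with 4 or more. GC content moved with the number of boxes, with a median of 48.0% at no box and 76.0% at 4 or more. Among windows of 60% to 70% GC, 9.51% (7.31 to 12.3) of 536 with a box had a summit, against 2.87% (1.61 to 5.07) of 383 without. Among those of 50% to 60% GC the shares were 6.20% (3.91 to 9.71) and 1.58% (0.905 to 2.74). Above 70% GC they were 9.05% (7.11 to 11.5) of 674 and 1 of 53, or 1.89% (0.334 to 9.94), and these intervals overlapped. Below 50% GC no window with a box had a summit (0 of 68, upper bound 5.35%), against 1.005% of 1493 without.

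**Figure D4:**
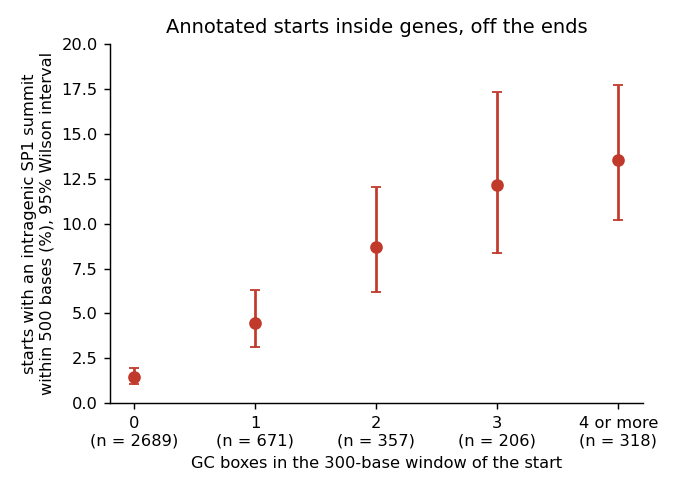
Share (%) of annotated starts inside genes that had an intragenic SP1 summit within 500 bases (vertical axis), by the number of GC boxes in the 300-base window (horizontal axis); points are shares with 95% Wilson intervals. The share is 1.45% with no box and 13.5% with 4 or more.

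The number of boxes did not order the scores. The median score was 6.96 (5.44 to 8.75) for the 31 summits at a start with no box, 7.82 (6.67 to 8.80) for 55 with 1 or 2 and 7.48 (6.36 to 8.15) for 62 with 3 or more, and all 3 intervals overlapped. The scores at the 5 starts with most boxes lay on both sides of 7.51, the median of the 148 summits at starts. After DCAKD (8.15) these were STK32C, a kinase (10 boxes, score 5.44), TBC1D14, a regulator of autophagy (8 boxes, 8.67), HAUS7, a subunit of the augmin complex of the spindle (8 boxes, 5.95), and ING5, a reader of histone methylation (8 boxes, 5.03). Among the highest scores at starts, AMZ2, a metalloprotease (22.2), and PMVK, a kinase of the mevalonate pathway (17.1), had 1 box each. C11orf91 (16.3) and RIMS3, a synaptic protein (15.9), had 3 each.

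Boxes and summits had different positions around the start. In the windows with an intragenic summit, boxes were densest in the 50 bases before the start (0.613 per window) and the 50 before those (0.601), the interval that held only 4 summits. A box was present in the window for 117 of the 148 summits, or 79.1% (71.8 to 84.8). Only 40 of the 148 summits fell inside the 300-base window, so no sequence was read at the rest. Of the 40, 5, or 12.5% (5.46 to 26.1), had a box within the 100 bases around them, as far as the window reached. At protein-coding gene ends, searched in the same way, 74 of 410 did, or 18.0% (14.6 to 22.1), and these intervals overlapped. Spans cut at the window's edge can miss boxes, so both shares may be too low.

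Density was highest near the gene's start. The strand was known for 889 of the host genes. Between 1 and 2.5 kb from the start there were 4.88 intragenic summits per Mb of gene sequence, counted once for each host gene. The density was 1.61 from 2.5 to 5 kb, 1.86 from 5 to 10 kb, 1.34 from 10 to 20 kb, 0.979 from 20 to 50 kb, 0.879 from 50 to 100 kb and 0.773 beyond 100 kb. From the other end of the gene, the same distances gave 1.53, 1.78, 1.52, 1.22, 1.19, 1.09 and 0.796 per Mb. The start side was far denser within 2.5 kb, while from 2.5 to 5 kb and beyond 20 kb the other end had slightly higher values. Of those 91 pairs of summit and gene, 32 stood at an annotated start. In genes over 20 kb divided into 10 equal stretches, the stretch at the start had 1.43 per Mb and the others 0.803 to 1.10. Over all host genes of known strand, 52.1% (49.03 to 55.1) of the pairs lay in the first 50% of the span. Whether a summit lay in an exon or an intron was not analysed here.

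**Figure D5:**
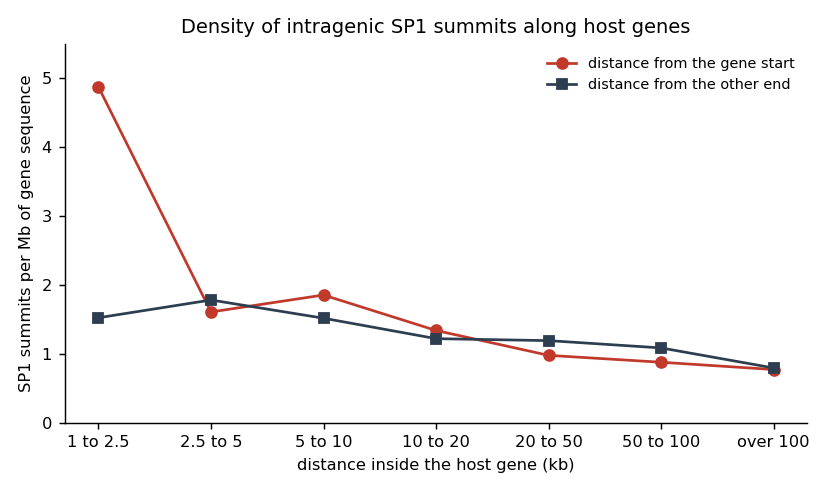
Intragenic SP1 summits per Mb of gene sequence (vertical axis) by distance inside the host gene (horizontal axis, kb), measured from the gene's start (red circles) and from its other end (dark squares). Only the first point from the start, at 4.88 per Mb, stands far above the others, which run from 0.773 to 1.86.

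Away from starts, most intragenic summits lay in deposited SP1 regions. Each region is a stretch of 1 or more joined peaks that the authors ranked. Of the 1245 summits, 889 lay in a region, or 71.4% (68.8 to 73.8), against 46.7% of all SP1 summits off chromosome 19. The share was higher between genes, at 89.6% (87.3 to 91.5), and far from genes, at 97.2% (95.6 to 98.2), and it was 1.90% at protein-coding gene ends. Proximity to a start moved with this share. A region held 1 of the 148 summits within 500 bases of a start, 3 of 34 between 500 and 1000 bases and 5 of 66 between 1000 and 2500 bases. Beyond, it held 143 of 175 up to 10000 bases, or 81.7% (75.3 to 86.7), and 666 of 729 farther out, or 91.4% (89.1 to 93.2). The region list thus held few of the summits near starts, and the steps by which the authors made it are not described in the labels. The 1 summit at a start inside a region was in ROBO3, an axon guidance receptor, at rank 138, with a score of 9.60; it was chosen after its values were seen. In all, 872 of the 2356 SP1 regions, or 37.0%, held an intragenic summit, and 849 of these consisted of 1 peak. Among the 236 best-ranked regions, 57 held one, or 24.2%.

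The 5 intragenic summits in the best-ranked regions lay in pairs of peaks joined over several kb. TRUB2, a pseudouridine synthase, held the summit of the region ranked 13 (12381 bases, 2 peaks), with a score of 3.87. GPR84, a receptor of medium-chain fatty acids, held rank 15 (9861 bases, score 6.42), and EFNA3, an ephrin ligand, rank 16 (9761 bases, score 12.05). CPNE8, a copine, held 2 summits in the region ranked 22 (8396 bases), with scores of 4.22 and 3.68. Among these 5, 3 scores were below the intragenic median of 5.21, and that of EFNA3 was above 10.

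H3K27ac summits were rare at intragenic SP1 summits. Within 500 bases, 29 of 1245 had one, or 2.33% (1.63 to 3.33), against 2.63% of all SP1 summits off chromosome 19. The share was 0.926% (0.594 to 1.44) at protein-coding gene ends, 2.69% between genes and 9.41% (7.33 to 11.99) far from genes. It was 2.70% (1.06 to 6.74) for intragenic summits at annotated starts and 2.19% (1.45 to 3.30) for the others. Without the 8 summits beside mitochondrial, rRNA or tRNA gene copies, 6 of which had an H3K27ac summit, it was 23 of 1237, or 1.86% (1.24 to 2.77). That interval still lay above the share at gene ends but overlapped its interval. The H3K27ac list is itself short at gene starts, with 38 of the 12771 outermost starts within 500 bases of a summit.

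The shared positions off those copies had a median SP1 score of 5.72 (4.98 to 9.10), against 5.21 (5.16 to 5.35) for summits without H3K27ac, and the intervals overlapped. After RTN4, the highest were in ANAPC11, the RING subunit of the anaphase-promoting complex (SP1 13.5, H3K27ac 6.29, 31 bases apart), SRGAP1, a GTPase-activating protein of Slit-Robo signalling (13.0 and 5.06, 128 bases apart), PHF20, a reader of methylated lysine (11.3 and 8.53, 264 bases apart), and FANK1 (11.2 and 7.91, 139 bases apart). The ANAPC11 position was in regions of both lists, at ranks 175 and 1005. The PHF20 position was at rank 142 in both. Among lower scores, chosen after their values were seen, were 3 at annotated starts: TXNRD1, thioredoxin reductase (SP1 6.36, H3K27ac 7.46), GSN, the actin-severing protein gelsolin (4.83 and 4.90), and DNAJB4, a heat shock protein (4.71 and 6.08). With RTN4 these were all 4 summits at starts that had H3K27ac.

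Host genes were long. They numbered 1099 of 17393 protein-coding genes over 2 kb off chromosome 19, or 6.32%, which is 5.91% of all 18582 such genes of any span. Their median span was 108 kb against 29.0 kb for all of these genes. The share of genes with an intragenic summit was 1.02% at spans of 2 to 10 kb, 4.25% at 20 to 50 kb, 12.4% at 100 to 200 kb and 35.6% (30.5 to 41.0) above 500 kb. Long genes hold more positions that meet the rule. An SP1 summit at the gene's own start was present in 13.9% (11.8 to 16.4) of 889 host genes and in 12.9% (12.3 to 13.5) of 12903 others. Hosts had the higher share from 50 to 100 kb (15.7% against 11.955%) and from 100 to 200 kb (15.1% against 10.9%). The same held from 200 to 500 kb (10.99% against 6.49%), above 500 kb (9.68% against 3.53%) and from 10 to 20 kb (22.2% against 14.4%). Hosts had the lower share from 20 to 50 kb (14.1% against 15.7%) and from 2 to 10 kb (10.5% against 12.3%). In every class the intervals overlapped. H3K27ac summits inside the gene were present in 23.0% of host genes and 5.204% of others. Within the genes above 500 kb the shares were 64.3% (55.1 to 72.6) and 42.4% (35.8 to 49.2), and from 100 to 200 kb they were 25.1% (20.03 to 31.0) and 12.3% (10.8 to 13.95). The share was also higher among hosts from 200 to 500 kb (32.9% against 22.8%), 50 to 100 kb (14.2% against 6.18%) and 10 to 20 kb (6.41% against 1.41%), with intervals that did not overlap. From 20 to 50 kb it was 4.35% (2.22 to 8.34) against 3.19% (2.69 to 3.77), and from 2 to 10 kb 2.44% (0.432 to 12.6) against 0.707% (0.489 to 1.02), with intervals that overlapped. Spans still differ within these classes, and their part in the difference was not tested.

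Most host genes held a single intragenic summit, 949 of them, while 125 held 2 and 25 held 3 or more. PCDH15, a cadherin of hair cells, held the most. Its 5 summits scored 5.95, 5.21, 4.71, 4.21 and 3.95, and every one lay in a region of its own, 163008 bases or more from any gene end. SH2D3C, a signalling adaptor, held 4. Of these, 3 lay within 1 region of 1983 bases (9.33, 6.85 and 5.83) and the fourth 71 bases past an annotated start (9.28). DLGAP1, a synaptic scaffold gene, held 4 scattered summits (6.16, 6.09, 4.35 and 3.91), and the second had an H3K27ac summit 454 bases away. CPNE8 held 4 (4.53, 4.42, 4.22 and 3.68). PCBD2 held 3, all beside mitochondrial gene copies.

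Gene lists were read against the 6.32% of all genes over 2 kb, whose hosts had a median highest score of 5.36. Of 26 genes with textbook internal promoters, 3 held a summit: TCF4, a basic helix-loop-helix factor (4.81, at 150 bases before an annotated start), ESR1, the estrogen receptor (4.05), and DNMT3A, a DNA methyltransferase (3.18). Only the TCF4 summit lay within 500 bases of an annotated start. The share was 11.5% (4.003 to 28.98), and the median span of the list was 139 kb. That interval holds the 12.4% of all genes of 100 to 200 kb. The list had 0.333 summits per Mb of gene span, against 1.01 for all genes. Density was low deep inside genes, at 0.773 per Mb beyond 100 kb from the gene's start. The part of this in the list's value was not tested. Of 25 coactivators, corepressors and chromatin enzymes, 5 held a summit, or 20% (8.86 to 39.1), at 1.58 summits per Mb. The median span of that list was 156 kb, and 12.4% of all genes of 100 to 200 kb held a summit. KAT6B held 2 summits (19.04 and 7.49), and the nuclear receptor coactivators NCOA2 and NCOA3 had highest scores of 15.5 and 5.61. ARID1B, a subunit of the BAF remodelling complex, had 1 at 4.62. Of 24 actin and focal adhesion genes, 9 did, or 37.5% (21.2 to 57.3), with a median span of 107 kb and 2.67 summits per Mb. The 12.4% of genes of 100 to 200 kb is the nearer background for this list too. The actin cross-linker FLNA had 2 summits in the region ranked 117 (9.60 and 7.78), the cytolinker PLEC 2 (8.88 and 6.30), LIMA1 1 (5.76) and the adhesion protein TNS1 1 (4.40). The median of the highest scores in the list was 3.86. Of 20 very long genes of fragile sites and neurons, 6 did, or 30.0% (14.5 to 51.9), at 0.384 summits per Mb. These included DAB1 (7.08), CSMD1 (7.08), NRXN3 (6.70) and RBFOX1 (6.13), each in a deposited region. The median span of that list was 1484 kb, and 35.6% (30.5 to 41.0) of all genes above 500 kb held a summit.

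The remaining lists were too small to differ clearly from all genes. Of 23 growth-signal transcription factors, 1 held a summit, or 4.35% (0.772 to 21.0), the Wnt pathway factor TCF7L2 (4.53). Of 21 genes of the RGS family, which shorten G protein signalling, 1 did, or 4.76% (0.846 to 22.7), RGS3 (4.62). Both intervals hold the 6.32% of all genes. None of 27 genes recurrently altered in lung adenocarcinoma held one (upper bound 12.5%), and none of 14 markers of blood cells or 14 of alveolar and airway epithelium did. With no gene in 14 the upper bound is 21.5%, so the 6.32% of all genes lies within the interval of each of these 3 lists.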

How the data were processed

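CUT&RUN libraries of H1299 cells for SP1 and H3K27ac were used, 1 per antibody, grouped by their titles. The deposited summit lists hold single bases with a −log10 p-value or −log10 q-value as score, from 3.001 for SP1 and 3.02 for H3K27ac upward. The deposited region lists hold positions, joined peaks and, as a score, the authors' rank. The submitters' processing notes name hg38 as the build and the tools cutadapt 2.5 and deepTools 3.4.1, without their roles. Item names resemble the output of MACS and ROSE. Neither the aligner, the peak caller, its control nor the way regions were made is given in the sources used here. A different threshold or control would change which summits are listed.

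Gene spans, starts and sequences came from RefSeq tables of GRCh38.p14. Of 35116 promoter windows, 35084 starts fell inside the span of their gene and were used, and strand was known for 889 of the 1099 host genes. Measures of starts and strand leave out chromosome 8. Genes elsewhere without a listed start add no start or strand, though their summits stay counted in shares at starts. No genome was used: GC boxes, planned for 300 bases around each summit, were therefore counted in the windows of annotated starts, and the planned share in exons was not run. Shares and medians were computed with Python 3.11.15, NumPy 2.4.6 and pandas 2.3.3. Positions are 1-based. Summits within 500 bases counted as shared or as at a start. The share calculation was tested on simulated data.

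The summits and the gene lists were chosen with earlier results of these data known. Genes named are hosts of the 10 highest scores, the 5 with most summits, the 10 highest with H3K27ac, up to 4 per list, the 3 nearest each side of the limit, the 10 highest at starts, the 5 in best-ranked regions and the 5 with most GC boxes. A gene that this rule names is not reported here. For the 5 starts with a summit on each side all are named, chosen after their values were seen. Alternatives covered the distance from ends and starts, the kinds of gene whose ends count, stricter scores, other windows, joined summits, summits beside gene copies and the genes counted.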

Additional observations from a re-analysis of the deposited data

How the results depend on the processing

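Of 56 alternative values for 8 results, 32 stayed within the interval of the reported value (or within 1.5 times for counts) and 24 moved. No paired analysis was possible because each antibody had 1 library. With scores above the median of all SP1 summits, 361 intragenic summits were left, with a median score of 7.96; 4.16% had H3K27ac, 43.5% lay in a region and 29.3% at a start. Above the upper quartile 126 were left, with values of 12.1, 9.52%, 26.2% and 36.7%. Both H3K27ac shares include the 6 summits beside gene copies that had H3K27ac, which scored 9.30 or higher. The shares at stricter scores without those summits were not computed. At over 500 bases from ends the median was 5.39, with 62.0% in a region and 15.5% at a start, and at over 2500 bases the shares were 79.1% and 10.6%. Summits over 1000 bases from every start had a median of 5.11 and 83.9% in a region, and the better-ranked 50% of regions held 32.0%. H3K27ac within 200 bases gave 1.53%. A GC box was in 12.5% of the 100-base spans around 40 summits, cut where the window ended, and the longer box in 37.8% of windows, against 79.1%. Starts within 250 and 1000 bases gave 7.12% and 15.8%; the alternatives for starts were added after seeing the data. Genes over 2 kb gave 6.32% holding a summit, against 5.91% of all genes. The share in exons was not run, and the GC box share has no value for summits over 1000 bases from every start. Depth limits are unknown without read counts.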

Other observations

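Intragenic SP1 summits were unevenly spread over chromosomes. Density per Mb of sequence that could meet the rule was 1.67 on chromosome 17, 1.66 on chromosome 8, 1.53 on chromosome 12 and 1.52 on chromosome 6, against 1.06 over all. It was 0.410 on chromosome X (20 summits) and 0.416 on chromosome 21 (5 summits). The median score was 5.88 on chromosome 17 and 4.92 on chromosome 8. Chromosome copy number in H1299 was not analysed here, and its part in these densities was not tested.

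Some intragenic summits stood in close groups. Another intragenic summit lay within 1000 bases of 65 of them, or 5.22%. The same share over all SP1 summits was not computed. Chosen after their values were seen, MNT, a partner of the MYC network, held 3 on chromosome 17, at 2393079, 2393507 and 2399447, with scores of 9.26, 13.0 and 6.26. The last of these lay over 1000 bases from the others. SIN3A, a corepressor scaffold, held 3 on chromosome 15, at 75450598, 75452059 and 75452419, with scores of 6.76, 6.80 and 8.15, around an annotated start. Its first summit lay over 1000 bases from the others. PEG10, a gene derived from a retrotransposon, held 3 on chromosome 7, at 94657564, 94657942 and 94658713, with scores of 6.09, 6.03 and 10.5.

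Small genes near the summits were counted for the intragenic summits only. Within 1000 bases, 22 of 1245 summits had a pseudogene, or 1.77%. There were 8 with a microRNA gene, 3 with a small nuclear RNA gene and 2 with a tRNA gene. None had a small nucleolar RNA or rRNA gene. The same shares over all SP1 summits were not computed, so no excess or lack can be read from these counts.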
